A study of Homo sapiens with 6 samples.

Results

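The E2F transcription factors and the retinoblastoma (pocket) proteins are described here as 10 genes: the activators *E2F1*, *E2F2* and *E2F3*, the repressors *E2F4* and *E2F5*, the atypical factors *E2F7* and *E2F8*, and the pocket proteins *RB1*, *RBL1* and *RBL2*. They were chosen by name, as the rows of the deposited expression table whose Ensembl identifiers carry these symbols, and all 10 were found among 58735 genes. RNA was sequenced from HGC27, a human gastric cancer cell line, after 48 h with ARV-825 (3 libraries, titled ARV125nM for the dose in nM) and from control cells at 0 nM (3 libraries). ARV-825 is a small molecule that joins a ligand of the BET bromodomain proteins to a ligand of the ubiquitin ligase subunit cereblon, so that BET proteins are degraded. The control cells are called untreated in the sample labels and received DMSO according to the study's methods. The labels give a time for the ARV-825 cells alone, so whether control cells were cultured equally long is not stated. All libraries come from the same cell line, and whether replicates were separate cultures is not stated. The p-values therefore cover the variation among these libraries alone, which may be technical. The question addressed is how the RNA of the E2F and pocket protein genes differed between ARV-825 and control cells.

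Values are FPKM, fragments divided by exon length in kilobases and by a scale for each library. Fragments in genes numbered 14821971 to 15201942 in ARV-825 libraries and 16626609 to 19145661 in control libraries. The scale recovered from the values was 14580441 to 15032448 in ARV-825 libraries, below the fragments in genes in each, and 17215685 to 20183214 in control libraries, above them in each. This raises ARV-825 values against control values, and how the scale was set is not stated. Mitochondrial genes held 9.84% to 11.97% of fragments in ARV-825 and 5.62% to 6.24% in control libraries, and FPKM summed to 348808.1 to 360661.7 in ARV-825 and 282667.1 to 294346.3 in control libraries. The part of these differences in the results was not tested beyond the scalings given with them. ARV-825 replicate 1 stood apart: the chi-square of its fragment counts over the degrees of freedom was 6.68 against replicate 2 and 6.02 against replicate 3, compared with 1.62 between replicates 2 and 3 and 1.76 to 2.09 between control libraries. The epithelial markers *EPCAM*, *CDH1*, *KRT8*, *KRT18* and *KRT19* reached at most 0.678 FPKM in any library, and none of 7 gastric differentiation markers exceeded 0.296 FPKM, so the labelled gastric origin was not visible in these markers. The 4 mesenchymal markers summed to 254.0 to 257.8 FPKM in ARV-825 and 278.1 to 289.9 FPKM in control libraries. Of these sums, *VIM* alone held 244.6 to 248.0 FPKM in ARV-825 and 262.4 to 273.7 FPKM in control libraries. *CDH2* reached at most 0.0801 FPKM in any library, and 3 of the 4 had a mean of at least 1 FPKM. The 4 fibroblast markers summed to 85.7 to 87.3 FPKM in ARV-825 and 239.9 to 241.5 FPKM in control libraries. *COL1A1* held 25.9 to 29.4 FPKM of this in ARV-825 and 139.9 to 142.3 FPKM in control libraries. *LUM* held 50.4 to 55.1 FPKM in ARV-825 and 73.9 to 77.3 FPKM in control libraries. *COL1A2* and *DCN* were lower in ARV-825 as well, and the part of these markers in the results was not tested.

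In proliferating cells, cyclin-dependent kinases phosphorylate the pocket proteins, which release E2F factors to transcribe genes of DNA replication and cell cycle entry. In quiescent cells, *E2F4* and *E2F5* occupy the same promoters with *RBL1* (p107) or *RBL2* (p130) and keep them silent. *E2F7* and *E2F8* bind DNA without a partner from the TFDP genes and repress E2F targets late in S phase. Several family genes carry E2F sites in their own promoters, so that the family feeds back on itself.

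Promoters are shown because the members that differed most are known targets of the family, and the letters of such sites can be read in them. Each is 300 bases, 250 before and 50 after a RefSeq transcript start on GRCh38.p14, written 5′ to 3′ on the strand of the gene, and RefSeq sequences were matched for 8 of the 10 genes (not for *E2F5* and *E2F8*). Capitals mark the E2F words TTTCGCGC or TTTGGCGC or TTTCCCGC or TTTGCCGC, searched on both strands. *E2F1* lies at chr20:33686336-33686635 (minus strand), *E2F2* at chr1:23531184-23531483 (minus), *E2F3* (the upstream of its 2 starts) at chr6:20401629-20401928 (plus), *RBL1* at chr20:37095948-37096247 (minus) and *E2F4*, shown as a promoter without a word, at chr16:67191905-67192204 (plus).
E2F1: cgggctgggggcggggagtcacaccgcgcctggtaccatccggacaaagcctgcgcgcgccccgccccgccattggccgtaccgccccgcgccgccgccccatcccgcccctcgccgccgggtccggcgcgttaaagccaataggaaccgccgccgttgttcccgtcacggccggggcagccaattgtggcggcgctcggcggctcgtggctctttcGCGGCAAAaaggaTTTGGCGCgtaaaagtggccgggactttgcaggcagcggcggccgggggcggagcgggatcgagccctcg
E2F2: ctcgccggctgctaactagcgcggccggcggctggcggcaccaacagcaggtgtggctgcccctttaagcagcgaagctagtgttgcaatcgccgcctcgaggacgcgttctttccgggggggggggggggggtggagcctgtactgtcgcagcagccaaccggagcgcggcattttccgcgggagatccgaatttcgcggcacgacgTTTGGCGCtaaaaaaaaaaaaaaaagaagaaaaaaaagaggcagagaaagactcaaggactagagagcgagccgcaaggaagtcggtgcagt
E2F3: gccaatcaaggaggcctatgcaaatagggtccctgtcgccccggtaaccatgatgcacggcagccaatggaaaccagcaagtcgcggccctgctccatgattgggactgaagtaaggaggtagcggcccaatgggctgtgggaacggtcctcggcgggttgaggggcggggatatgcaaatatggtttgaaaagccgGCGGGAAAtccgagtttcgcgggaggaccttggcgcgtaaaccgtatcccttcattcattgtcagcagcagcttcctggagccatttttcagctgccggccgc
RBL1: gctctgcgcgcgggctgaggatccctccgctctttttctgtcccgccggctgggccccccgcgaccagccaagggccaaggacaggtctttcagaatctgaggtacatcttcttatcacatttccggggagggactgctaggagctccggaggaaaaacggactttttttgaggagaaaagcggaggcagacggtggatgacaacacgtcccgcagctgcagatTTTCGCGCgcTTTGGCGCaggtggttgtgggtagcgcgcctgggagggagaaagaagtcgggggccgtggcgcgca
E2F4: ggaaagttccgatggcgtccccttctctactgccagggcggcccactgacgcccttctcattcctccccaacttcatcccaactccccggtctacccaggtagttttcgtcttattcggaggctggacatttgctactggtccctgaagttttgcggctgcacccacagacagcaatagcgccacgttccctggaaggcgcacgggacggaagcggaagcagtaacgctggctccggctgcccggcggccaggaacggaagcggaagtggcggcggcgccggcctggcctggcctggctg

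An E2F word was found in 4 of the 8 matched genes, *E2F1*, *E2F2*, *E2F3* and *RBL1*, against 3.31% of 35116 RefSeq promoters of the same length. That share counts single promoters, also of silent genes, whereas *E2F3* and *RBL2* were matched by 2 windows each. Among genes with a mean of at least 1 FPKM and a promoter, 650 of 9152 held a word. *E2F1* held a pair of words, GCGGCAAA (TTTGCCGC on the other strand) at bases −33 to −26 and TTTGGCGC at −20 to −13 from the start. *RBL1* also held a pair, TTTCGCGC at −26 to −19 and TTTGGCGC at −16 to −9, and 0.145% of all promoters held 2 or more words. *E2F2* had TTTGGCGC at −42 to −35, and *E2F3* had GCGGGAAA (TTTCCCGC on the other strand) at −53 to −46. The cell cycle homology words TTTGAA and TTCGAA were searched as well: TTTGAA lay at −65 to −60 in *E2F3* and at 25 to 30 in *RBL2*, and 16.4% of all promoters held either word. The E-box CACGTG, the site of MYC and related factors, was found only at the downstream start of *E2F3*, at −80 to −75, against 7.26% of all promoters. No word was found in *E2F4* or *E2F7*. The window listed for *RB1* lies inside the gene and not at its most upstream start. These matches describe letters and not binding.

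Most of the family was lower in ARV-825. Of the 10 genes, all of which passed the filter of a mean of at least 1 FPKM over the 6 libraries, 8 were lower, 1 was higher (*RB1*) and 1 did not pass the test (*E2F5*), at an adjusted p under 0.05 in limma over 13442 genes. For comparison, 40.2% of the whole set of tested genes passed as lower and 37.0% as higher. Of the genes that passed, 47.9% were thus higher, and by TPM (FPKM brought to the same sum in every library) 30.6% were. With an absolute log2 fold change above 1 in addition, 5 members were lower (*E2F1*, *E2F2*, *E2F7*, *E2F8* and *RBL1*) and none higher, against 12.1% of all genes lower and 8.81% higher. The groups did not overlap for 9 members, 8 of them lower, where 80.1% of all genes did not overlap in either direction and 41.6% were lower without overlap. The members had a median log2 fold change of −0.81, and all genes one of −0.015. Without ARV-825 replicate 1, 8 members were lower, 5 of them also past the fold threshold. *E2F2*, *E2F8* and *RBL1* were under 1 FPKM in every ARV-825 library, so they passed the filter through their control levels. The study of these libraries had already named *E2F2* and *RBL1* as downregulated. Fewer cells of a kind (such as cells in S phase) and less RNA per cell cannot be told apart in RNA from whole cultures.

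**Figure D1:**
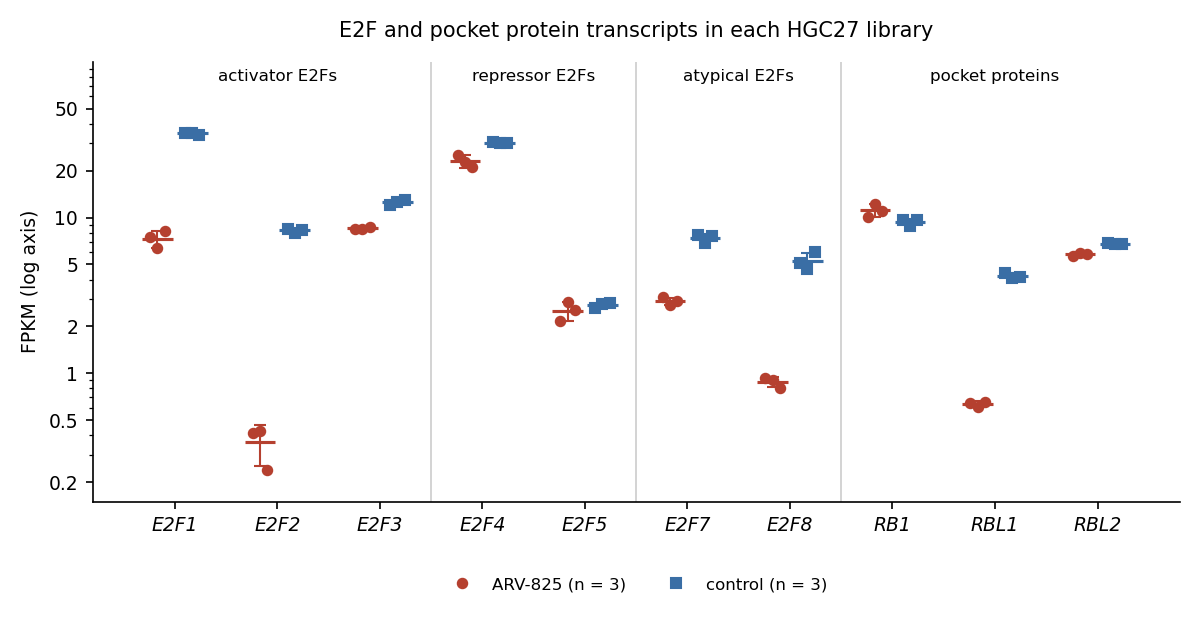
FPKM of the 10 E2F and pocket protein genes in each library on a log10 axis, ARV-825 left of control, with points for libraries, wide lines for group means and whiskers for the SD. The 3 *E2F2* points of ARV-825 lie between 0.238 and 0.427 FPKM, below the 3 control points between 8.005 and 8.41 FPKM, whereas the groups overlap for *E2F5*.

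The activator *E2F1*, which drives replication genes and in excess also apoptotic ones, had 7.45, 6.35 and 8.14 FPKM in ARV-825 replicates 1, 2 and 3, against 34.9, 35.0 and 34.1 FPKM in control replicates 1, 2 and 3. Every ARV-825 library was far below every control library. The gene (chr20:33675683-33686404 on GRCh38, minus strand) averaged 7.31 ± 0.900 FPKM in ARV-825 and 34.7 ± 0.497 FPKM in control cells (SD, n = 3 each), so that 21.1% ± 1.51 (SE) of the control level was left. Its log2 fold change on the log2(FPKM + 1) scale was −2.11 (SE 0.0779, limma adjusted p = 8.91e-07).

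*E2F2*, an activator that overlaps with *E2F1* in its targets, showed the lowest remaining level of the family. It had 0.415, 0.427 and 0.238 FPKM in ARV-825 libraries, against 8.41, 8.005 and 8.36 FPKM in control libraries. These values rest on 33, 35 and 19 fragments in ARV-825 and 823, 752 and 921 in control libraries. The groups were far apart, although the low ARV-825 counts make the lower values uncertain by counting alone. The gene (chr1:23506430-23531220, minus strand) kept 4.36% ± 0.742 of its control level, and its log2 fold change was −2.77 (SE 0.0725, limma adjusted p = 3.05e-07). The pseudocount shrinks this value, and over 19 other settings of the fit it lay between −4.63 and −2.70.

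*E2F3*, the activator most closely tied to cell cycle entry, differed less. It had 8.49, 8.46 and 8.67 FPKM in ARV-825 libraries, against 12.1, 12.5 and 13.0 FPKM in control libraries. The groups did not overlap, and the SD was 0.112 FPKM among ARV-825 libraries and 0.452 FPKM among control libraries. The gene (chr6:20401906-20493715, plus strand) kept 68.1% ± 1.51 of its control level, with a log2 fold change of −0.50 (SE 0.0402, limma adjusted p = 2.59e-05). The 3 activators, all with an E2F word in a promoter, spanned 4.36% to 68.1% of control.

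Among the repressors, *E2F4*, the most abundant E2F factor of resting cells, had 25.2, 22.6 and 21.2 FPKM in ARV-825 libraries, against 30.4, 29.9 and 30.2 FPKM in control libraries. The ARV-825 libraries were lower without overlap, and replicate 1 was the closest of them to the controls. *E2F4* (chr16:67192169-67198918, plus strand) kept 76.3% ± 3.95 of its control level (log2 fold change −0.38, SE 0.0621, limma adjusted p = 0.00109).

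*E2F5*, which also acts with *RBL1* and *RBL2*, had 2.16, 2.86 and 2.54 FPKM in ARV-825 libraries, against 2.64, 2.79 and 2.83 FPKM in control libraries. ARV-825 replicate 2 was above all control libraries and replicate 1 below them, so the groups overlapped. Its log2 fold change of −0.10 (SE 0.0820) did not pass the test (limma adjusted p = 0.311), and it was −0.022 without ARV-825 replicate 1 and −0.17 without ARV-825 replicate 2. Rescaled to TPM, where the median of all genes moved to −0.31, it was −0.40 with a limma adjusted p of 0.00649. Of the exon bases of *E2F5*, 18.6% are shared with genes on the other strand (*RBIS* among them), and the library kit does not mark strand, so reads of these genes cannot be told apart there.

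The atypical factors, which E2F1 is known to induce and which then repress E2F targets, were both lower. *E2F7* had 3.07, 2.77 and 2.90 FPKM in ARV-825 libraries, against 7.78, 6.88 and 7.60 FPKM in control libraries. No ARV-825 library reached any control library, and *E2F7* (chr12:77021247-77065580, minus strand) kept 39.2% ± 1.87 of its control level (log2 fold change −1.11, SE 0.0592, limma adjusted p = 3.96e-06). *E2F8*, its closest relative, had 0.928, 0.900 and 0.809 FPKM in ARV-825 libraries, against 5.08, 4.66 and 5.996 FPKM in control libraries. Control replicate 3 was the highest, and the ARV-825 libraries were all low, with 49 to 56 fragments each. *E2F8* (chr11:19224063-19241620, minus strand) kept 16.8% ± 1.44 of its control level (log2 fold change −1.73, SE 0.0882, limma adjusted p = 3.21e-06). The pseudocount shrinks this value too, which was −2.56 with a pseudocount of 0.01 and −2.65 with limma-voom on fragments.

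The pocket proteins went apart. *RBL1*, which encodes p107 and is itself an E2F target, had 0.645, 0.603 and 0.654 FPKM in ARV-825 libraries, against 4.41, 4.09 and 4.15 FPKM in control libraries. The libraries of each group lay close together, and the groups far apart. *RBL1* (chr20:36996349-37095995, minus strand) kept 15.0% ± 0.513 of its control level (log2 fold change −1.67, SE 0.0602, limma adjusted p = 8.14e-07), and its log2 fold change was −2.71 with a pseudocount of 0.01 and −2.81 with limma-voom. *RBL2*, which encodes p130, the pocket protein of quiescent cells, had 5.62, 5.96 and 5.86 FPKM in ARV-825 libraries, against 6.86, 6.81 and 6.74 FPKM in control libraries. All ARV-825 libraries were lower, by a small margin, at 85.5% ± 1.55 of control (log2 fold change −0.20, SE 0.0403, limma adjusted p = 0.00351). *RBL2* lies at chr16:53433977-53491649 (plus strand), and 18.2% of its exon bases are shared with genes on the other strand (*AKTIP* among them).

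*RB1*, which encodes the retinoblastoma protein that binds the activator E2Fs, was the only member above its control level. It had 10.2, 12.2 and 11.0 FPKM in ARV-825 libraries, against 9.64, 8.81 and 9.60 FPKM in control libraries. ARV-825 replicate 2 was the highest and control replicate 2 the lowest, and the groups did not overlap. *RB1* (chr13:48303726-48599436, plus strand) stood at 119% ± 7.27 of control (log2 fold change 0.22, SE 0.0706, limma adjusted p = 0.0231), but at −0.064 (adjusted p = 0.473) after rescaling to TPM. The call was also lost without ARV-825 replicate 2 (0.16, limma adjusted p = 0.0526), without control replicate 2 (0.19, adjusted p = 0.0806) when libraries were scaled to their fragment totals (0.14, adjusted p = 0.116), when FPKM were rescaled without mitochondrial genes (0.20, adjusted p = 0.0630) and when low genes were kept in the fit (0.22, adjusted p = 0.0513). It held when libraries were scaled to fragment totals without mitochondrial genes (0.22, adjusted p = 0.0365). Over all 19 other settings of the fit its adjusted p ran between 0.00698 and 0.473. The median of all genes was −0.015 in the deposited scale and −0.31 by TPM, and *RB1* lay above it in both. By TPM, *E2F3* was at −0.84, *E2F4* at −0.70 and *RBL2* at −0.51, also further below 0 than in the deposited scale. TPM values are larger than FPKM, so a pseudocount of 1 shrinks them less. *E2F2* was at −3.90 and *RBL1* at −2.50 by TPM.

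**Figure D2:**
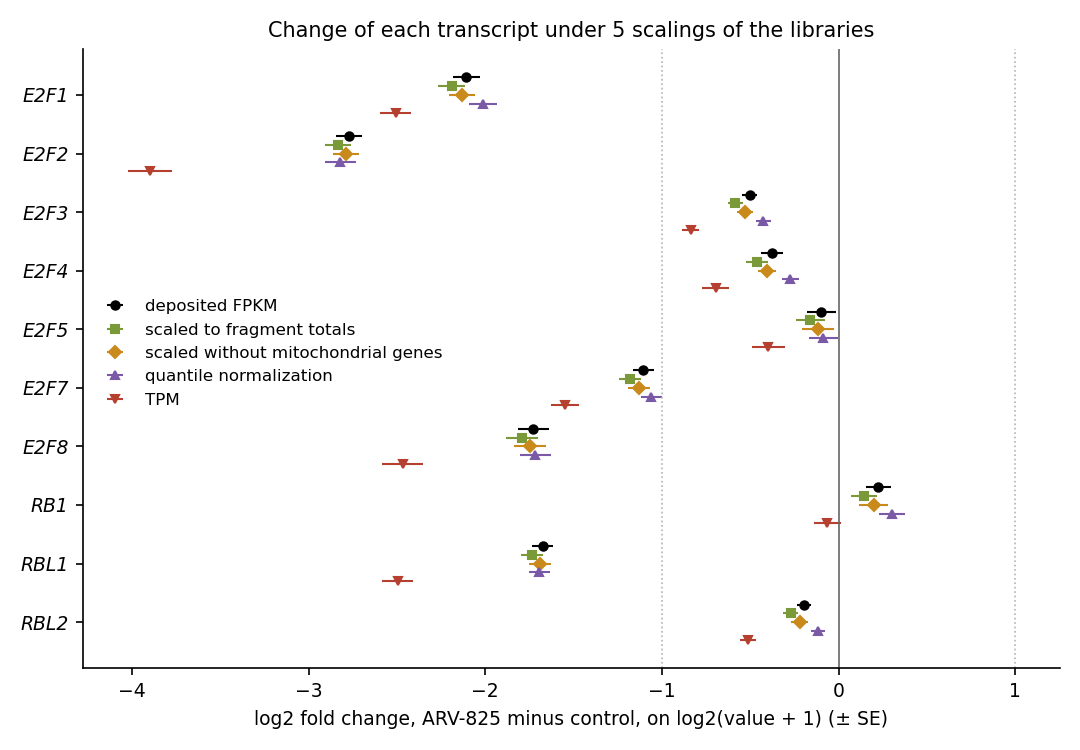
log2 fold change of each member, ARV-825 minus control, on the log2(value + 1) scale in the deposited FPKM and under 4 other scalings of the libraries (bars are SE, and dotted lines mark the fold threshold of 1). *RB1* is 0.22 in the deposited scale and −0.064 by TPM, and *E2F1*, *E2F2*, *E2F7*, *E2F8* and *RBL1* stay below −1 in each. The added 1 weighs less in TPM, whose values are larger than FPKM.

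Ratios of members within a library do not depend on how libraries are scaled. *E2F1* was 0.295, 0.281 and 0.384 of *E2F4* in ARV-825 libraries, against 1.15, 1.17 and 1.13 in control libraries, so the order of these genes was turned round in every library. The difference was −1.86 on the log2 scale (SE 0.140, exact two-sided permutation p = 0.1, the smallest that 3 against 3 allows, and 0.122 after adjustment over the 11 ratios). The summed activators stood at 0.638 ± 0.0694 of the summed repressors in ARV-825 and 1.69 ± 0.0112 in control cells (SD, n = 3 each, log2 difference −1.41). Against the summed pocket proteins they stood at 0.928 ± 0.101 in ARV-825 and 2.73 ± 0.0867 in control cells (log2 difference −1.56), again without overlap. *RB1* was 1.81, 2.05 and 1.87 times *RBL2* in ARV-825 libraries, against 1.41, 1.29 and 1.43 times in control libraries. This ratio did not overlap between groups (log2 difference 0.47, SE 0.0697), and *RB1* over *RBL1* was 17.6 ± 2.36 in ARV-825 and 2.22 ± 0.0836 in control cells. *E2F3* over *E2F4* (log2 difference −0.16, exact permutation p = 0.2) and *E2F5* over *E2F4* (0.26, exact permutation p = 0.4) overlapped between groups, and the other 9 ratios did not. Leaving out ARV-825 replicate 1 moved *E2F3* over *E2F4* to −0.086 and *E2F5* over *E2F4* to 0.43, and leaving out ARV-825 replicate 2 moved the ratio of *E2F5* to 0.15.

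The make-up of the family differed accordingly. The 7 E2F genes summed to 45.5 ± 1.93 FPKM in ARV-825 and 101.0 ± 1.14 FPKM in control cells (SD, n = 3 each). *E2F4* held 50.5% ± 2.63 of that sum in ARV-825 and 29.9% ± 0.246 in control cells, and *E2F1* held 16.1% ± 2.03 in ARV-825 and 34.3% ± 0.841 in control cells. *E2F2* held 0.789% in ARV-825 and 8.17% in control cells, while *E2F3* held 18.8% in ARV-825 and 12.4% in control cells. The 3 pocket protein genes summed to 17.6 ± 1.18 FPKM in ARV-825 and 20.4 ± 0.614 FPKM in control cells. *RBL2* held nearly the same share in both (33.2% in ARV-825, 33.4% in control), *RB1* held 63.2% ± 1.66 in ARV-825 and 45.9% ± 1.10 in control, and *RBL1* held 3.63% in ARV-825 and 20.7% in control.

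**Figure D3:**
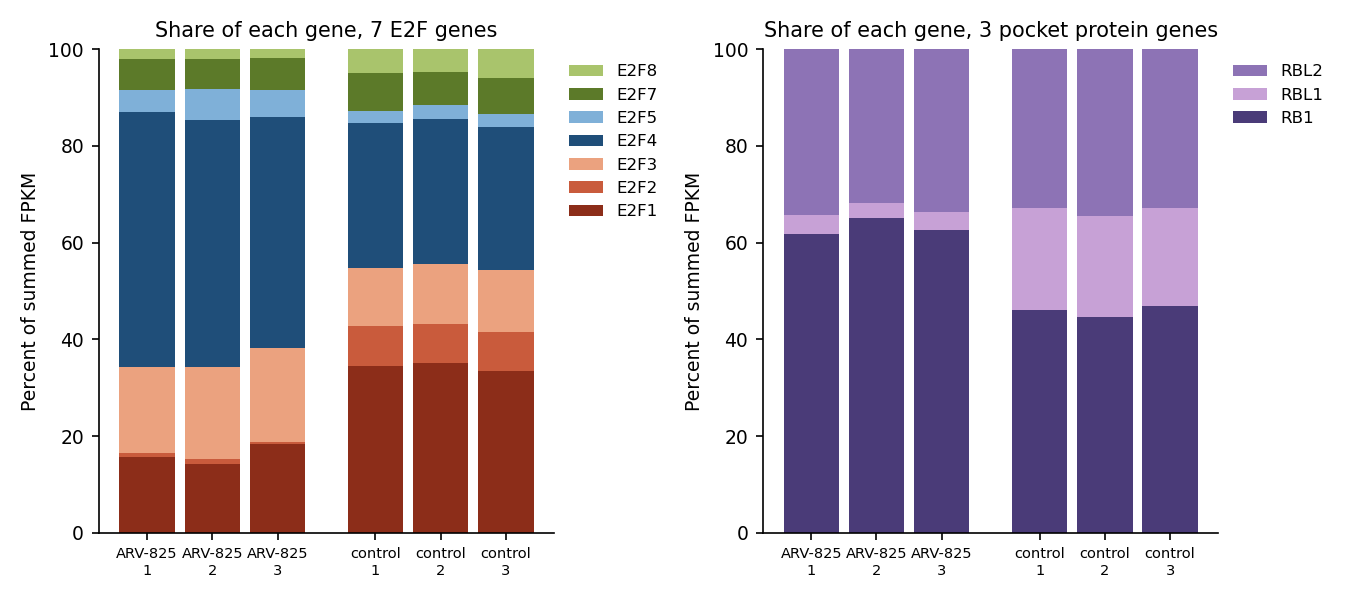
Share of each gene in the summed FPKM of the 7 E2F genes and of the 3 pocket protein genes, in percent, for the 3 ARV-825 and the 3 control libraries. *E2F4* holds 47.7% to 52.9% of the E2F sum in ARV-825 and 29.6% to 30.0% in control libraries, and *RB1* holds 61.8% to 65.0% of the pocket protein sum in ARV-825 and 44.7% to 46.9% in control libraries.

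By level per exon length, ARV-825 cells ran *E2F4*, *RB1*, *E2F3*, *E2F1*, *RBL2*, *E2F7*, *E2F5*, *E2F8*, *RBL1* and *E2F2* from high to low, and among neighbours only *E2F7* and *E2F5* overlapped. Control cells ran *E2F1*, *E2F4*, *E2F3*, *RB1*, *E2F2*, *E2F7*, *RBL2*, *E2F8*, *RBL1* and *E2F5*, with no neighbours overlapping. *E2F2* was thus the lowest in ARV-825 cells, at 0.360 FPKM, and in the middle of the order in control cells, at 8.26 FPKM. *E2F1* stood below *E2F4*, *RB1* and *E2F3* in ARV-825 cells and above all other members in control cells.

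Of the partners with which E2F factors bind DNA, *TFDP1*, the main one, was lower at 14.6 ± 1.17 FPKM in ARV-825 and 38.2 ± 0.154 FPKM in control cells (log2 fold change −1.33), and *TFDP2*, its relative, was higher at 4.68 ± 0.269 FPKM in ARV-825 and 2.38 ± 0.0219 FPKM in control cells (0.75). The pocket-independent repressor *E2F6* was lower (−0.43). *TFDP3* was not tested, with at most 0.0396 FPKM in any library.

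The cyclins and kinases that phosphorylate pocket proteins were lower in 8 of 9 tested genes (median −0.73), beside 40.2% lower of all genes. *CCND2* (cyclin D2) was higher at 0.24, which turned to −0.055 by TPM. *CDK6* had 1.06 ± 0.0975 FPKM in ARV-825 and 5.17 ± 0.0381 FPKM in control cells (−1.58). *CDK2* (−1.69), *CCNA2* (−1.69) and *CCNE1* (−1.18), which act at S phase entry, were also past the fold threshold. *CDK4* (−0.69), *CCND3* (−0.73), *CCNE2* (−0.59) and *CCND1* (−0.11, and −0.056 with quantile normalization) were lower by less, and *CCNA1* was not tested, with at most 3 fragments in a library. The number lower was 7 with quantile normalization, with no intensity trend, and without ARV-825 replicate 3, control replicate 1 or control replicate 2.

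Tested genes of the inhibitors of these kinases ran the other way, with 6 of 6 higher (median 0.96), of which 4 by TPM. Of all 13442 genes tested, 37.0% were higher, and 3176 were higher by TPM. *CDKN1A* (p21) had 28.1 ± 2.59 FPKM in ARV-825 and 2.83 ± 0.0268 FPKM in control cells (log2 fold change 2.92), and *CDKN2B* (p15) had 9.89 ± 0.549 FPKM in ARV-825 and 2.39 ± 0.175 FPKM in control cells (1.68). *CDKN2D* (1.23) and *CDKN1B* (p27, 0.68) were higher as well. *CDKN2C* (0.29, and −0.011 by TPM) and *CDKN2A* (0.19, and −0.12 by TPM) depended on the scaling in their direction. The value of *CDKN2A* covers all transcripts of the gene, so those of p16 were not told apart. *CDKN1C* was below the filter and ran lower without overlap, with 0.0276 FPKM in ARV-825 and 0.245 FPKM in control cells. When low genes were kept in the fit, 6 genes of the list were higher and 1 was lower.

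The MuvB core joins either the repressor E2F and pocket protein complex or MYB proteins. Of 6 tested genes, 5 were lower (median −0.61), beside 40.2% lower of all genes. *MYBL2* (B-MYB), an E2F target, had 19.1 ± 1.32 FPKM in ARV-825 and 89.7 ± 1.04 FPKM in control cells (−2.18). *LIN9* (−1.24), *RBBP4* (−0.63), *LIN54* (−0.59) and *MYBL1* (−0.44) were lower. *LIN52* was at −0.0022 and did not pass (limma adjusted p = 0.984), and *LIN37*, below the filter, had 1.13 FPKM in ARV-825 and 0.538 FPKM in control cells.

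The corepressors that pocket proteins recruit split, with 6 higher and 5 lower of 11 tested (median 0.19, and −0.10 by TPM, where 2 were higher and 5 lower), beside 37.0% higher and 40.2% lower of all genes, so nothing particular to them is read from the count. *SUV39H1*, a histone methyltransferase, was lower (−1.43), as was *RBBP7* (−0.49), while *KDM5A*, a demethylase found through its binding to the retinoblastoma protein, was higher (1.03), as was *ARID4A* (0.68). Of 7 genes that control the turnover of E2F and pocket proteins, 5 were lower and 1 higher (median −0.37). *SKP2*, a ubiquitin ligase subunit that removes p27, was lower (−1.17), as were *FBXO5* (−1.05), *CCNF* (−0.87), *MDM2* (−0.37) and *USP7* (−0.26). *HUWE1* was higher (0.33), and *FZR1* (−0.0085, limma adjusted p = 0.927) did not pass. By TPM, *HUWE1* was at 0.023 and *FZR1* at −0.31, with none of the list higher and 6 lower. The whole fit moved the same way, from 5405 genes lower and 4977 higher in the deposited scale to 7214 and 3176 by TPM. The TPM counts of both lists therefore include a shift that is not particular to them.

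Known targets of the activators in S phase were lower in all 43 genes tested, beside 40.2% lower of all genes. Past the fold threshold were 35 of them, beside 12.1% of all genes, and their median log2 fold change was −1.57. Without ARV-825 replicate 1, 42 were lower. Some of the listed genes were already named as downregulated in the study of these libraries. So were the kinases *CDK2* and *CDK4* and the members *E2F2* and *RBL1*. *UHRF1*, which brings DNA methylation to replicated DNA, had 7.37 ± 0.231 FPKM in ARV-825 and 53.8 ± 0.175 FPKM in control cells (−2.71). The replication genes *CDC45* (−2.35), *CDT1* (−2.34) and *GINS1* (−2.34) followed.

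Of 10 apoptotic targets of E2F1 tested, 5 were higher and 3 lower (median 0.14), beside 37.0% higher and 40.2% lower of all genes. By TPM, 2 of them were higher and 4 lower (median −0.14), where the whole fit had 3176 genes higher and 7214 lower. The balance of the list turned to 3 higher and 5 lower when low genes were kept in the fit. It was 4 higher and 5 lower with a minimum mean of 0.1 FPKM. Without ARV-825 replicate 3, and likewise without control replicate 3, 3 were higher. *TP53INP1*, a stress gene that promotes cell death, had 20.05 ± 2.02 FPKM in ARV-825 and 0.691 ± 0.0683 FPKM in control cells (3.63). It was under 1 FPKM in every control library, so it passed the filter through its ARV-825 level. *PMAIP1* (NOXA) had 8.51 ± 0.478 FPKM in ARV-825 and 23.9 ± 0.228 FPKM in control cells (−1.39). *PPP1R13B* was higher (0.49) and *APAF1* lower (−0.31). *TP73*, which E2F1 induces, and *HRK* were below the filter: *TP73* had 0.0869 FPKM in ARV-825 and 0.982 FPKM in control cells, and *HRK* had 0.383 FPKM in ARV-825 and 1.48 FPKM in control cells.

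**Figure D4:**
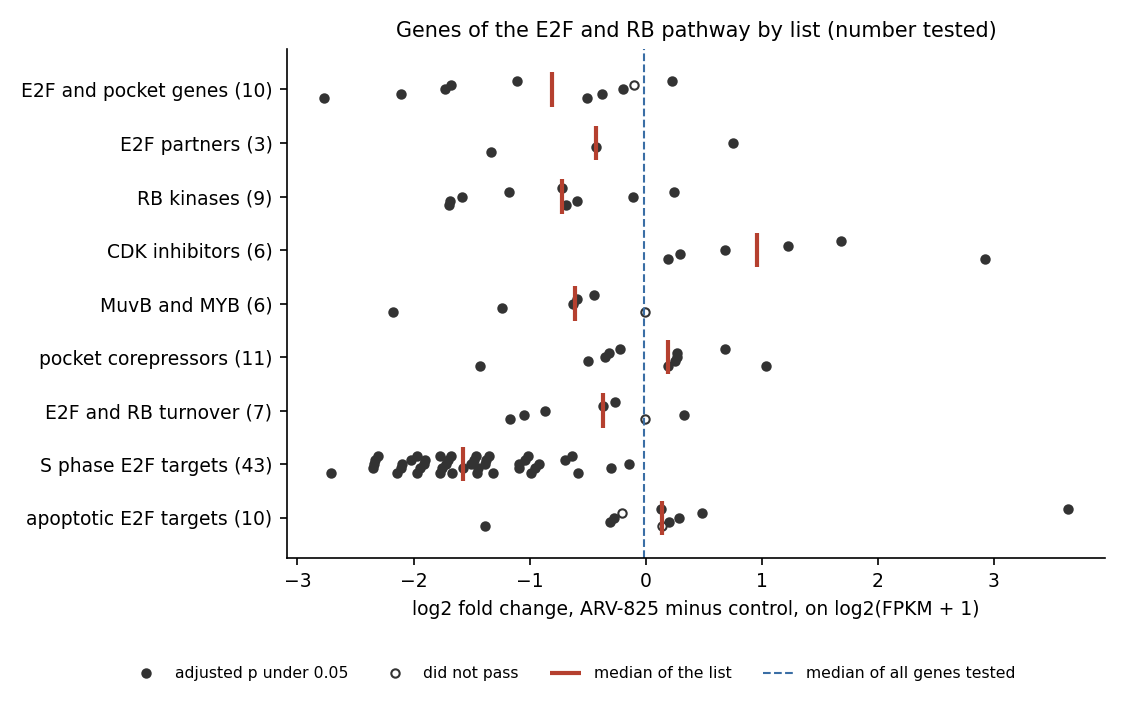
log2 fold change of the 10 E2F and pocket protein genes and of every tested gene of 8 lists around them, ARV-825 minus control, on the log2(FPKM + 1) scale. Filled points passed the adjusted p, open points did not, red lines are list medians and the dashed line is the median of all genes. The 43 S phase targets lie below 0 with a median of −1.57, and the 6 inhibitors of cyclin-dependent kinases lie above 0 with a median of 0.96.

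The tested protein-coding genes whose levels over the 6 libraries ran most like *E2F1* were *GRPEL2*, *MAPKAPK3*, *HPRT1*, *NACC2* and *RHOXF2* (Pearson r of 0.9996 to 0.9999). For *RB1* they were *C14orf28*, *PHF3*, *PTGR2*, *DYNC2LI1* and *SAR1B* (r of 0.982 to 0.988). With 3 libraries in each group, these r values describe mainly the difference between groups, and many genes share it.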

How the data were processed

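RNA from HGC27 cells given 125 nM ARV-825 for 48 h (3 libraries) or 0 nM, with no time given (3 libraries), was analysed. Per the labels, libraries were made with a TruSeq kit, which does not mark strand. The authors deposited FPKM values, and HISAT2 2.0.5 and the build mm10 are named in the notes of the submitters on processing. All 58735 identifiers are human and occur in GENCODE 29, which gave exon lengths, coordinates and classes. As to the counting tool, none is given in the sources used here. FPKM were multiplied by exon length and by a scale found for each library from the steps between low values, and 100% of values came within 0.05 of a whole fragment. log2(FPKM + 1) of the 13442 genes with a mean of at least 1 FPKM was compared between the groups. The comparison used limma 3.58.1 in R 4.3.3 (lmFit, eBayes with trend), with Benjamini-Hochberg adjustment. The fit was first run on simulated data with far fewer changed genes than were called here. That run therefore cannot decide how the fit behaves on these libraries. The thresholds were an adjusted p of 0.05 and, in addition, an absolute log2 fold change of 1. Ratios were compared by exact permutation tests, with Benjamini-Hochberg adjustment over the ratios by scipy 1.17.1.

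The members and lists were chosen with earlier results of these data known, and counts over the lists are descriptions. Named are the 10 members, every gene of lists of up to 10 genes, the 4 largest changes of longer lists, and the 5 genes most like *E2F1* and *RB1*. Genes named beyond these (*TP73*, *HRK*) were chosen after their values were seen. Some listed genes are not reported here. Alternatives were other pseudocounts, filters, scalings, variance and count models, protein-coding genes alone, a replicate block and leaving out each library. Scaling to fragment totals, with and without mitochondrial genes, was added after seeing the data. Precision is limited by fragments per gene, and fragments without molecular identifiers are not independent molecules.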

Additional observations from a re-analysis of the deposited data

How the results depend on the processing

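Over 19 other settings of the fit, *E2F1*, *E2F2*, *E2F3*, *E2F4*, *E2F7*, *E2F8*, *RBL1* and *RBL2* kept their direction and stayed past the threshold, and *E2F5* passed only by TPM. *RB1* had a log2 fold change of −0.064 by TPM, the reverse of its direction in the deposited scale. The number of members higher was 0 with no filter on low values, by TPM, scaled without mitochondrial genes, scaled to fragment totals (a setting chosen after seeing the data) and with a replicate block, and 0 to 1 when a library was left out. The cause was not tested. By TPM, 3176 genes were higher at the adjusted p, and 2978 were lower at both thresholds. The share of calls at both thresholds that were higher was 26.4% by TPM, 29.2% among protein-coding genes alone and 42.1% in the deposited scale, and at the adjusted p it was 30.6% by TPM and 47.9% in the deposited scale. With a pseudocount of 0.01, 1779 genes were higher at both thresholds, and 593 with protein-coding genes alone, where fewer genes are tested. limma-voom on recovered fragments called 2536 lower at both thresholds, against 1630 on log2(FPKM + 1). Leaving out a library gave 1112 to 1236 genes higher and 1564 to 1716 lower at both thresholds.

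Deviations of same-numbered libraries correlated by 0.00421, 0.0414 and 0.0378, and those of other pairs between the groups by −0.0402 to 0.00159. Values this small cannot decide whether same-numbered libraries share more than a number. With a replicate block, 4870 genes passed as higher and 5279 as lower (adjusted p), 8 members were lower, and *RB1* was at 0.22 with a limma adjusted p of 0.0528. No ratio within libraries reversed over 8 settings.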

Other observations

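Among tested genes with a RefSeq promoter, 650 held an E2F word and 8502 did not, a split made after seeing the data and given without a test. Of the genes with a word, 53.4% were lower and 30.9% higher in ARV-825, with a median log2 fold change of −0.25, and of those without a word 43.9% were lower and 36.7% higher, with a median of −0.057.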
